A study of Mus musculus with 23 samples.

Results

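Corticosteroid signalling in the hippocampus was followed through 7 genes chosen by name: the receptor genes Nr3c1 and Nr3c2, the enzyme gene Hsd11b1, the co-chaperone gene Fkbp4, the hormone receptor gene Crhr1, the coactivator gene Ncoa1 and the oestrogen receptor gene Esr1. The members were all probe sets (sets of short oligonucleotides that together report 1 transcript) whose annotated symbol was 1 of the 7. Of the 7 genes 6 were found, with 10 probe sets among 10833 that had a single symbol. Nr3c2, the mineralocorticoid receptor gene, had no probe set under its symbol in the annotation used and was not analysed here. The arrays came from male C57BL/6JNIA mice, 14 aged 15 months and 9 aged 2 months, with 1 array of whole hippocampus per mouse and no treatment that differed between the ages. Every animal, young or middle-aged, had learned the Morris water maze, first with a visible and then with a hidden platform, so no cage control without training exists for either age. The question put to the arrays was how gene expression in the hippocampus differs with age.

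Corticosterone, the main glucocorticoid of the mouse, crosses into the brain and binds the glucocorticoid receptor (Nr3c1) and the mineralocorticoid receptor (Nr3c2), and the hippocampus is known as a region rich in both. In the cytoplasm the receptors are held by Hsp90 with immunophilins such as FKBP52 (Fkbp4), and after binding hormone they enter the nucleus and switch genes on or off with coactivators such as SRC-1 (Ncoa1). Inside cells 11beta-hydroxysteroid dehydrogenase type 1 (Hsd11b1) remakes active corticosterone from its inactive 11-keto form, and Crhr1 is the receptor of corticotropin-releasing hormone, which drives the stress axis from the hypothalamus.

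Transcripts of the receptors and of the steroid-handling genes showed no change with age that passed the test, while 3 genes that glucocorticoids induce were higher at 15 months. None of the 10 member probe sets passed, at an unadjusted p under 0.05 or after adjustment. Over all 7453 probe sets bright enough to be tested 28 passed (0.376%), 0.335% higher and 0.0403% lower at 15 months, and 12.4% had an unadjusted p under 0.05. With no filter on brightness, the fit that holds the 5 dim member probe sets, 0.217% passed. The signal ranges of the ages overlapped for each of the 10, as they did for all but 4 of the tested probe sets (0.0537% were apart). Sgk1, a kinase gene that the glucocorticoid receptor induces, in contrast rose 1.96-fold (95% interval 1.53 to 2.52) without overlap between the ages.

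All 23 arrays had been scaled alike, with a trimmed mean signal of 500.3, and their median signals lay between 154.3 and 187.6. By the 25th percentile and the correlation with the other arrays, 15-month replicate 13 stood apart. The 25th percentile of its signals was 53.4, where the other arrays had 30.2 to 41.8, and its median correlation with them was 0.947. Among the brightest signals other arrays differed. The 99th percentile was 6677 and 7008 in 15-month replicates 3 and 12. It was 7116 and 6979 in 2-month replicates 7 and 8, and 7579 to 8997 in the remaining arrays. Several markers of hippocampal neurons were bright, such as Neurod2 at 1139.4 to 2379.7 and Wfs1 at 1041.5 to 2430.9. Others were not: Camk2a, at 106.6 to 324.4, lay at the 54.9th percentile of mean signal and Prox1 of dentate granule cells at the 38.6th. Choroid plexus RNA differed widely between mice, with Ttr at 68.9 to 9921.9. In whole tissue fewer cells of a type and less RNA per cell cannot be told apart. Signals are MAS5 values on a linear scale, and the level of a probe set depends on its probes, so levels are compared between mice and not between genes. Log2 changes are those of log2(signal + 16), 15-month minus 2-month, from limma with Benjamini-Hochberg adjustment over all probe sets tested. Ratios and fold changes between the ages are these log2 changes put on a linear scale, so they too are of signal + 16.

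The glucocorticoid receptor transcript was measured by 1 dim probe set. Nr3c1 had signals of 45.4, 71.6 and 86.3 (lowest, median and highest of 9 mice) at 2 months and of 33.2, 55.15 and 88.9 (14 mice) at 15 months. The lowest and the highest mouse were both 15 months old, replicates 1 and 3, and 10 of the 14 lay within the 2-month range. The means were 67.6 ± 14.2 (SD, n = 9) and 59.5 ± 17.1 (SD, n = 14). The ratio of 15 to 2 months, taken on signal + 16, was 0.894 (95% interval 0.726 to 1.10). With a mean at the 33.4th percentile of all probe sets Nr3c1 fell under the brightness filter, and its log2 change of -0.16 ± 0.15 (SE; adjusted p = 0.797) comes from the limma fit with no filter. At this signal a change of the receptor transcript smaller than the interval was not detectable. The added 16 narrows that interval for so dim a probe set.

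Esr1, the gene of oestrogen receptor alpha, a hormone-activated transcription factor related to the glucocorticoid receptor, had 4 probe sets, all dim. The brightest, 93946_at, had signals of 20.2, 33.1 and 65.0 at 2 months and 15.2, 32.2 and 58.7 at 15 months. The other 3 had means between 13.4 and 21.2 at either age, at the 10.9th to 15.0th percentile of mean signal, and none of the 4 passed the filter. In the limma fit with no filter their log2 changes ran from -0.15 to 0.13, with adjusted p between 0.861 and 0.914. The probe sets did not move together: between mice, after the mean of each age was taken out, their pairwise Pearson correlations ran from 0.05 to 0.45. In 3 of the 4 the highest 15-month value belonged to replicate 13, the array with the raised 25th percentile, among them 52.7 for 93945_at. Without that array the log2 change of 93945_at was 0.0565 in place of 0.13. The part of that array's raised low signals in these values was not tested.

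Hsd11b1, the enzyme gene that regenerates corticosterone, had almost the same mean at both ages. Its signals were 480.4, 610.4 and 835.8 at 2 months and 467, 637 and 952.8 at 15 months (lowest, median and highest). The highest of all was 15-month replicate 1, the same mouse that had the lowest Nr3c1 signal, and 12 of 14 mice lay within the 2-month range. The ratio was 1.01 (95% interval 0.875 to 1.16), with means of 637 ± 113 (SD, n = 9) and 643 ± 117 (SD, n = 14). The log2 change of 0.01 ± 0.10 (SE; limma, adjusted p = 0.967) turned to -0.03 without replicate 1. H6pd, which encodes the enzyme that supplies NADPH to Hsd11b1, differed as little, with signals of 1121 ± 106 and 1126 ± 74.7 and a log2 change of 0.01 (adjusted p = 0.956). Hsd11b2, which encodes the opposing enzyme that inactivates corticosterone, had 2 probe sets with mean signals between 10.5 and 21.7, both under the filter.

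Fkbp4, the co-chaperone gene, was read by 2 probe sets that differ by suffix: 92808_f_at, named with the suffix for probes that may match other members of a family, and 92809_r_at, for which design rules were relaxed. The first had signals of 1936.1, 2251.5 and 2509.1 at 2 months and of 1709.3, 2118.2 and 2438.3 at 15 months. The 5 lowest mice were all 15 months old, replicates 7, 6, 11, 13 and 1 at 1709.3 to 1832.6, and the other 9 of that age lay within the range of the young mice. The means were 2235 ± 197 (SD, n = 9) and 2060.4 ± 254 (SD, n = 14), a ratio of 0.919 (95% interval 0.834 to 1.01). The log2 change of -0.12 ± 0.07 (SE; limma, adjusted p = 0.477) had an unadjusted p of 0.0867, the lowest of the 10 member probe sets.

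The second probe set of Fkbp4 showed no such shift. Its signals were 415.3, 600.8 and 746.6 at 2 months and 359.8, 594.3 and 657.7 at 15 months, and 13 of 14 mice lay within the 2-month range. The log2 change was -0.03 ± 0.10 (adjusted p = 0.909), and 0.0163 without 15-month replicate 7, the lowest mouse of both probe sets. Between mice the 2 probe sets correlated at 0.58 after the mean of each age was taken out.

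The sequence before the Fkbp4 start is shown because FKBP52 is also a heat shock protein and its gene is read here beside the chaperone genes. RefSeq's promoter table (GRCm38.p6) gives 1 start for Fkbp4, and the stretch chr6:128438740-128438867 on the minus strand lies upstream of it, with the match to GAANNTTC, paired units of the heat shock element, in capitals.
Fkbp4: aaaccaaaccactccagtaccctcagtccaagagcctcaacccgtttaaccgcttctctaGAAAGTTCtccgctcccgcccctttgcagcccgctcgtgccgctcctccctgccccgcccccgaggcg
Dnaja1: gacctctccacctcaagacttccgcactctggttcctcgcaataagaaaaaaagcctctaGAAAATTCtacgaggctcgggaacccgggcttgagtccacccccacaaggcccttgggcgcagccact
The second line is the matching stretch of Dnaja1, which encodes an Hsp40 co-chaperone, chr4:40722284-40722411 on the plus strand. The motif reads the same on both strands and was searched in the 250 bases before each start. It was found in 4 of the 13 chaperone genes with an entry (Dnaja1, Hspa1a, Hspa1b and Stub1), in 2 of the 6 listed members with an entry (Fkbp4 and Nr3c2), and in 7.73% of all 27025 genes of the table. Nr3c1 had no entry. A match is a run of letters and shows no binding.

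Crhr1, the receptor gene of corticotropin-releasing hormone, had its widest spread in the 15-month mice. Its signals were 126.5, 200.8 and 235.9 at 2 months and 115.4, 183.7 and 311.5 at 15 months. The extremes were 15-month replicates 10 and 3, and the young mouse at 126.5, replicate 6, stood below the other 8, which began at 180.1. The SD of the log2 values was 0.37 at 15 months and 0.24 at 2 months, a difference that was not tested. The log2 change was -0.10 ± 0.14 (SE; limma, adjusted p = 0.792), and the ratio of 0.930 had a 95% interval of 0.766 to 1.13.

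Ncoa1, which encodes the steroid receptor coactivator SRC-1, had slightly lower signals at 15 months, within the spread of the mice. Its signals were 381.9, 473.1 and 532.2 at 2 months and 300.9, 451.9 and 516.9 at 15 months, and 12 of 14 mice lay within the range of the young. The ratio was 0.960 (95% interval 0.848 to 1.09), with a log2 change of -0.06 ± 0.09 (SE; limma, adjusted p = 0.815). The related coactivator genes did not pass either, with log2 changes of 0.05 for Ncoa2 (adjusted p = 0.915) and -0.11 for Ncoa3 (adjusted p = 0.772).

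**Figure D1:**
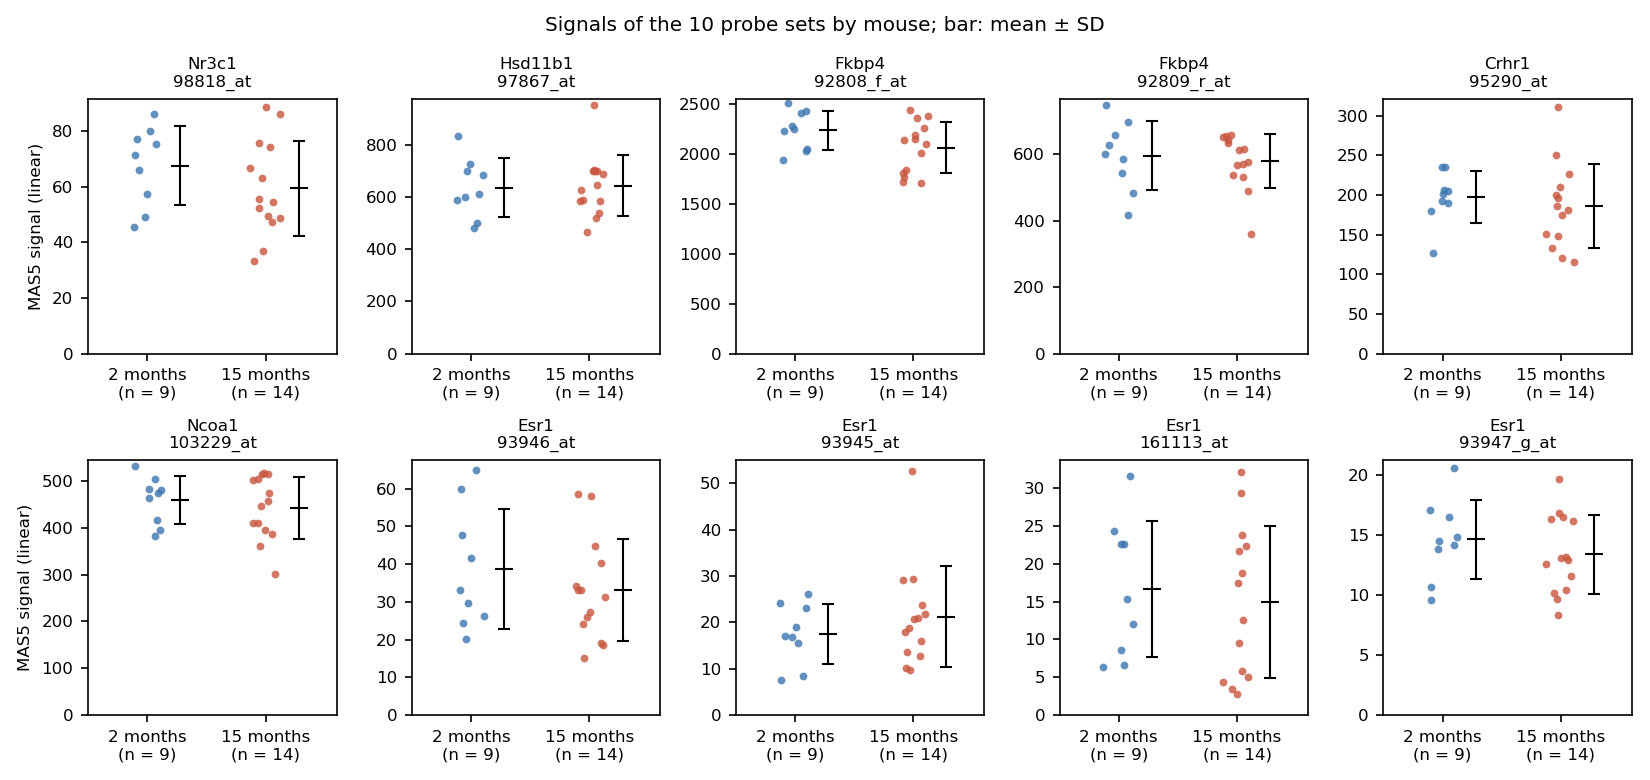
MAS5 signal (linear axis from 0) of the 10 member probe sets in each mouse, with 9 points at 2 months, 14 at 15 months, and the mean ± SD beside them. The points of the ages overlap in every panel, from Fkbp4 at 1709.3 to 2509.1 to the Esr1 probe set 161113_at at 2.8 to 32.2.

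The other genes of the pathway were read from 6 lists drawn up by name, with 1 probe set per gene, and 5 of the lists held no gene that passed. Of 15 tested chaperones and co-chaperones of the receptors 0 passed, 2 had an unadjusted p under 0.05, both higher, and the median log2 change was -0.01, against -0.02 over all tested probe sets. The 2 were Hspa1a, an inducible Hsp70 gene whose near-identical copy Hspa1b can share its probes, and Fkbp5. The probe set annotated to Hspa1b itself had a log2 change of 0.04 (limma, adjusted p = 0.900). Hspa1a was at 727 ± 134 (SD, n = 9) and 871 ± 107 (SD, n = 14), a log2 change of 0.27 ± 0.08 (SE; limma, adjusted p = 0.175) that passed without 2-month replicate 9 (adjusted p = 0.0435). Fkbp5, the FKBP51 gene, which encodes an inhibitor of receptor activity that the receptor itself induces, had signals of 1187, 1309 and 1556 at 2 months and of 1130, 1584 and 2523 at 15 months. Its log2 change was 0.25 ± 0.10 (adjusted p = 0.285). Fkbp4, whose product competes with FKBP51 for Hsp90, had -0.12 (92808_f_at) and -0.03 (92809_r_at), and neither gene passed. Hsp90aa1, which encodes the core chaperone itself, had a log2 change of 0.21 ± 0.23 (adjusted p = 0.753). Its lowest young mouse, 2-month replicate 1, was at 2448.6, where the 2-month median was 13687. The SD of its log2 values was 0.85 at 2 months and 0.31 at 15 months, and the change without that mouse is not given here.

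Of 16 tested coregulators 0 passed, with a median log2 change of 0.03 and a range from -0.17 to 0.17. Those of lowest p were Tgfb1i1, which encodes the receptor coactivator Hic-5 (-0.17 ± 0.08, adjusted p = 0.385), and Smarca4, which encodes a chromatin remodelling ATPase (-0.13 ± 0.07, adjusted p = 0.458). Of 12 tested genes of steroid synthesis, metabolism and transport 0 passed, with a median of -0.03. Those of lowest p were Stard3, which encodes a cholesterol transfer protein (-0.13 ± 0.05, adjusted p = 0.286), and Hsd17b4, which encodes a peroxisomal dehydrogenase (-0.24 ± 0.11, adjusted p = 0.364). Stard3 was below the 2-month mean in every one of the 14 mice, yet 12 of them stayed within the 2-month range of 860 to 1114. Of the 3 tested genes of the corticotropin-releasing hormone system 0 passed: Adcy9, an adenylyl cyclase gene, had a log2 change of 0.15 ± 0.09 (adjusted p = 0.503), Pomc, the precursor gene of corticotropin, -0.25 ± 0.24 (adjusted p = 0.709), and Gnas 0.11.

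Of 11 tested steroid and orphan nuclear receptors 0 passed, with a median of 0.03. The largest changes in either direction were of the same size, a log2 change of -0.33 ± 0.11 (adjusted p = 0.223) for Nr4a2, an orphan receptor gene that neuronal activity induces, and of 0.33 ± 0.12 (adjusted p = 0.254) for Nr1d1, which encodes the clock repressor REV-ERB alpha. Nr4a2 was below the 2-month mean in all but 1 of the 14 mice. Time of killing was not given in the sources used here, so its part in clock-linked values was not tested.

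**Figure D2:**
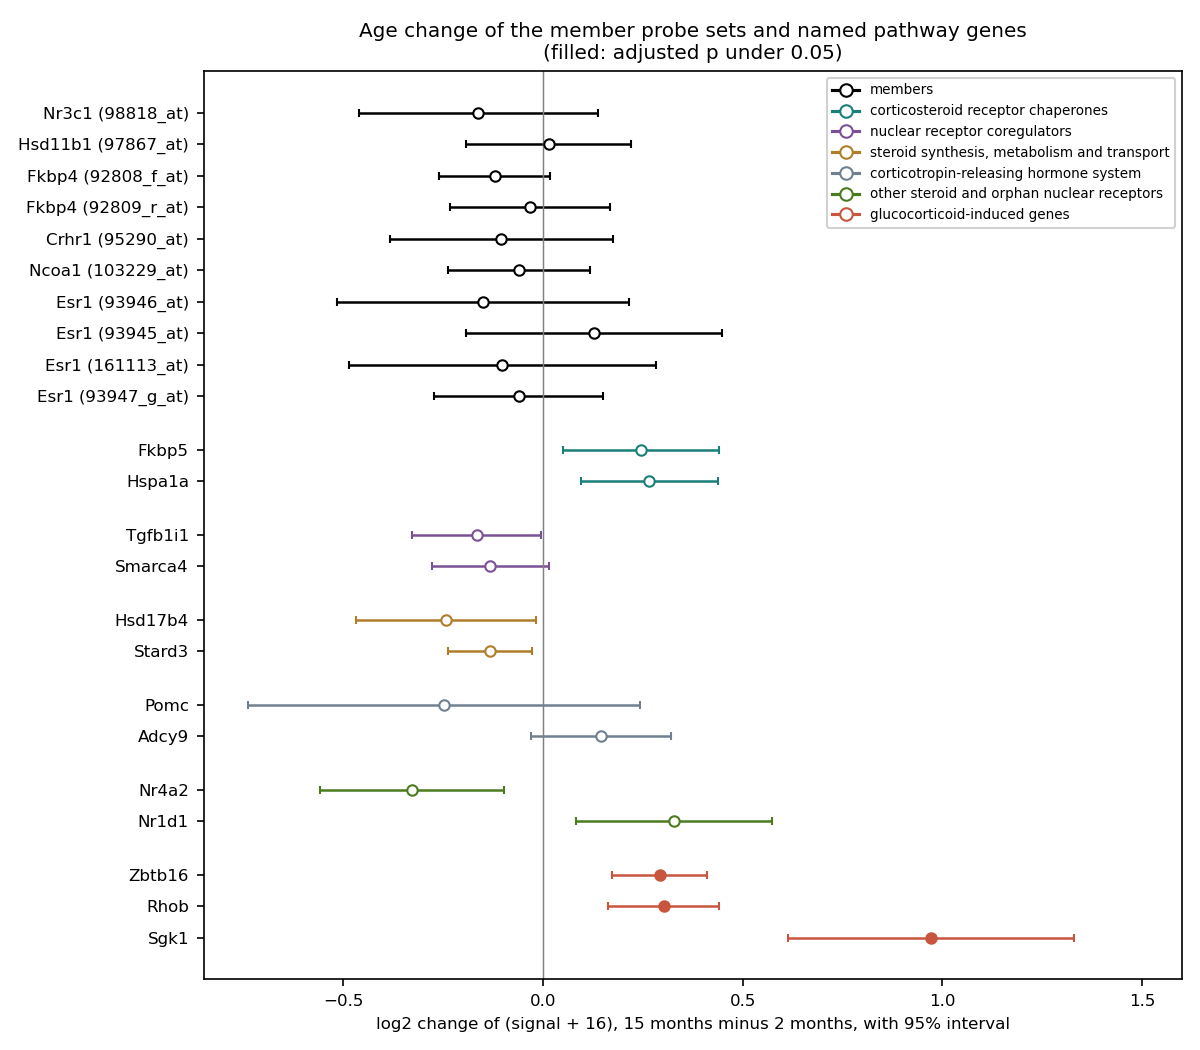
Log2 change of (signal + 16), 15 months minus 2 months, with 95% intervals, for the 10 member probe sets and the pathway genes named by rule, in the colour of their list. Filled points have an adjusted p under 0.05: these are Sgk1 (0.97), Rhob (0.30) and Zbtb16 (0.29), and the intervals of all 10 member probe sets include 0.

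Of the 6 lists, that of glucocorticoid-induced genes was the 1 with called genes. Of 27 tested genes 3 rose and 0 fell (0.335% of all tested probe sets were called higher), 23 had changes above 0, and the median log2 change was 0.24, against -0.02 over all tested probe sets. At an unadjusted p under 0.05, 11 of the 27 were higher and 0 lower, where 5.89% of all tested probe sets were higher and 6.51% lower. The list was written with earlier results of these data known, so its direction is no independent evidence.

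Sgk1 had signals of 779, 1046 and 1281 at 2 months and 1307, 2013 and 3277 at 15 months, so that the lowest 15-month mouse lay above the highest young mouse. Its means were 1028 ± 160 (SD, n = 9) and 2138 ± 770 (SD, n = 14), with a log2 change of 0.97 ± 0.17 (SE; limma, adjusted p = 0.00613). Zbtb16, a zinc finger transcription factor gene, was at 2525, 2784 and 3036 at 2 months and at 2979, 3482 and 4072 at 15 months, with 1 of 14 mice of 15 months inside the young range (log2 change 0.29, adjusted p = 0.0128). A dim second probe set of Zbtb16, under the filter, had a log2 change of 0.27 (adjusted p = 0.833 with no filter). Rhob, a small GTPase gene, was at 2997, 3853 and 4564 at 2 months and at 3979, 4666 and 5974 at 15 months, with 3 of 14 inside the young range. Its adjusted p of 0.0330 was between 0.0507 and 0.0965 without any 1 of 10 mice (15-month replicates 2, 4, 8, 10 and 14, 2-month replicates 1 to 5), and 0.0511 to 0.0726 in 4 other settings.

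Other induced genes had higher means at 15 months without passing, and the following were chosen after their values were seen. Pdk4, a kinase gene that restrains pyruvate oxidation, went from 123 ± 21.1 to 166 ± 24.2 (log2 change 0.39 ± 0.10, adjusted p = 0.0981), and 13 of the 14 older mice exceeded the mean of the young. Ddit4, an inhibitor gene of mTOR signalling, went from 1055 ± 162 to 1405 ± 323 (0.39 ± 0.11, adjusted p = 0.129) and Mt1, a metallothionein gene, from 8025 ± 584 to 9915 ± 1550 (0.29 ± 0.08, adjusted p = 0.130). Pdk4 passed without 15-month replicate 8 (adjusted p = 0.0437), and Mt1 without 15-month replicate 3 (0.0153). Cdkn1a, the p21 gene, had as large a log2 change as Sgk1, 0.98 ± 0.32, but spread from 75.9 to 514.9 in the 15-month mice and did not pass (adjusted p = 0.213). Tsc22d3, the GILZ gene, another well-known target, was dim and had a change of -0.30 (adjusted p = 0.774 with no filter).

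Beside these genes, the median log2 changes of the cell type marker lists went in both directions, against -0.02 over all tested probe sets. Microglial markers, 9 tested, had a median log2 change of 0.26, with a mean level of 9.58 to 9.91 per mouse on the log2 scale at 15 months and 9.31 to 9.65 at 2 months, and Ctss, C1qb and C1qc among them passed. Astrocyte markers (9 tested) ran from 10.52 to 10.81 and from 10.37 to 10.68, with a median log2 change of 0.03, and S100b among them passed. Markers of meninges and fibroblasts (8 tested, 0 called) ran from 8.62 to 9.87 and from 8.71 to 9.64, with a median log2 change of 0.19. Choroid plexus markers (5 tested, 0 called) ran from 7.44 to 10.46 and from 7.40 to 10.39, with a median log2 change of 0.12. Their mean level was 0.37 higher at 15 months, the largest such difference of the marker lists. Medians were lower for hippocampal principal neurons (-0.13), oligodendrocytes (-0.09) and neighbouring thalamus, habenula and striatum (-0.15), with 0 called in each. Npy among the interneuron markers and Slc2a1 among those of endothelium and pericytes were called higher. The part of microglial, astrocyte and meningeal RNA in the induced genes was not tested. With the choroid plexus mean of each array in the model the median change of the 27 genes was 0.23.

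**Figure D3:**
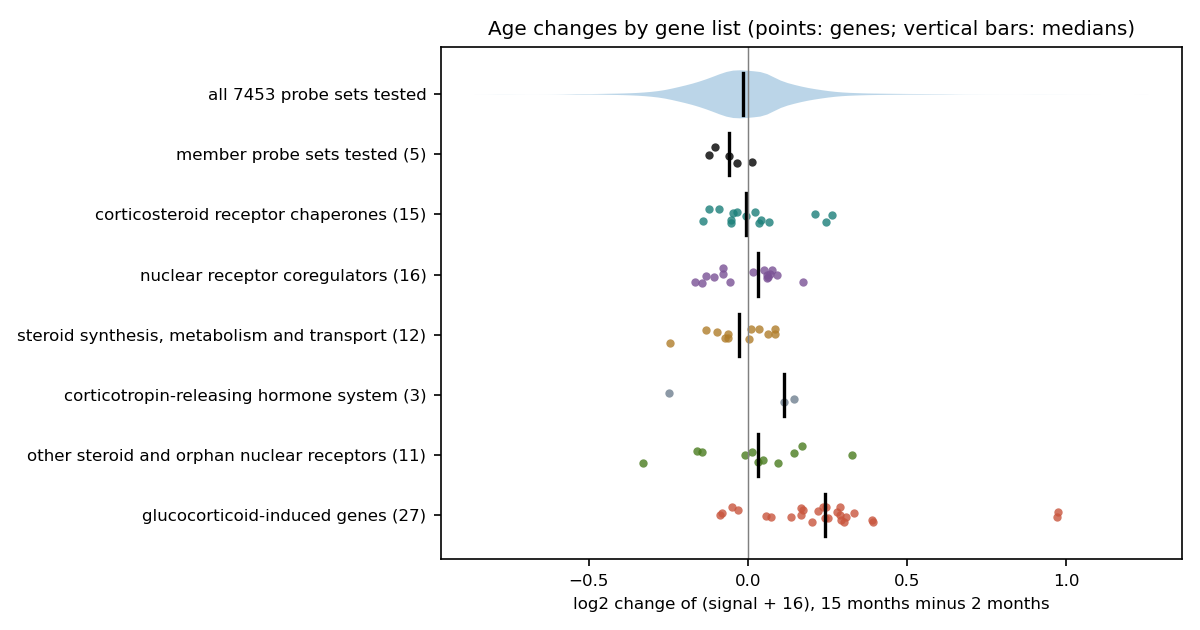
Log2 change of (signal + 16), 15 months minus 2 months, of the 5 tested member probe sets and of each tested gene of the 6 lists, with a vertical bar at each median and the distribution over all 7453 tested probe sets on top. The glucocorticoid-induced genes have a median of 0.24, while the medians of the chaperone, coregulator, steroid metabolism and nuclear receptor lists lie between -0.03 and 0.03.

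**Figure D4:**
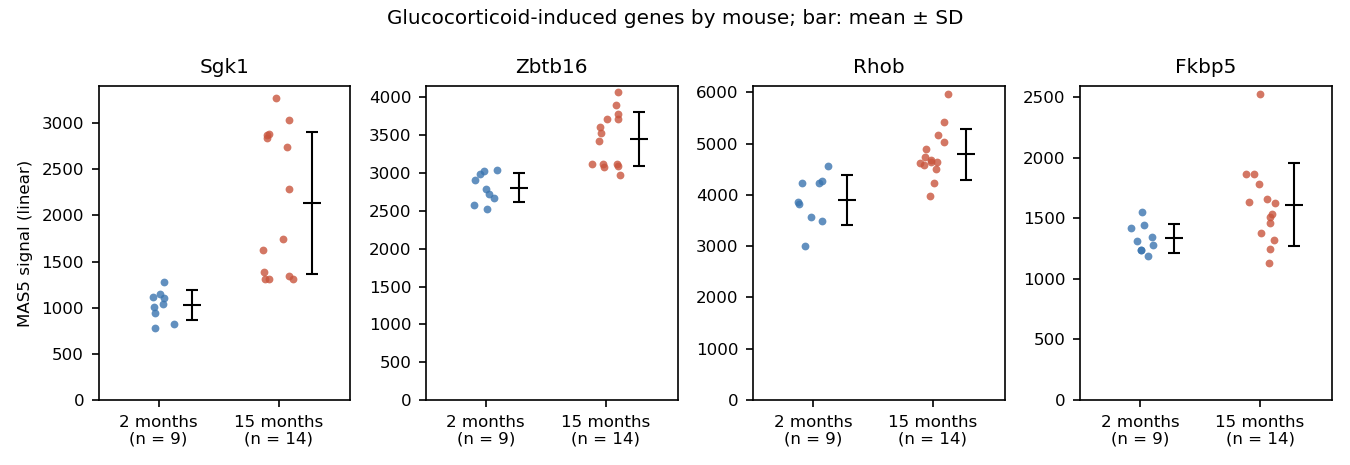
MAS5 signal (linear axis from 0) of Sgk1, Zbtb16, Rhob and Fkbp5 in each mouse, with the mean ± SD beside the points. Sgk1 runs from 779 to 1281 in the 9 mice of 2 months and from 1307 to 3277 in the 14 of 15 months, where the points form a lower and an upper group.

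The palindromic response element of the glucocorticoid receptor was looked for before the starts of these genes, because Sgk1 was the induced gene whose signals did not overlap between the ages. RefSeq's table lists 6 starts for Sgk1, and the stretch upstream of 1 of them, chr10:21993641-21993775 on the plus strand (GRCm38.p6), holds the element in capitals.
Sgk1: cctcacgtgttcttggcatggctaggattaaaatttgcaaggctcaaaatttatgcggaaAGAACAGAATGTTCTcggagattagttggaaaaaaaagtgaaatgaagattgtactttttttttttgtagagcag
The palindrome, AGAACA and TGTTCT with 3 bases of any kind between them, reads the same on both strands and occurred in the 250 bases before a start in 3 of 27025 genes (0.0111%), and Sgk1 was the 1 match among the 30 glucocorticoid-induced genes with an entry. Rhob and Fkbp5 had an entry and no match, and Zbtb16 had no entry. The single hexamer AGAACA on either strand, which is part of the palindrome, was found in 4 of the 30 (Bcl6, Sgk1, Sult1a1 and Tsc22d3). That compares with 18.2% of all genes. The hexamer was in 0 of the 6 listed members with an entry, which include Nr3c2. Nr3c1 had no entry and was not searched. No match says only that these letters are not in this window.

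Members were next set against the mean of the 27 induced genes, mouse by mouse. At 15 months the mice were split at the widest gap of that mean, with 7 at 9.50 to 9.63 and 7 at 9.77 to 9.96 on the log2 scale. Whether these groups are distinct was not tested. The 2-month mice lay at 9.35 to 9.60. Because of the gap no correlation over all 14 mice of 15 months is given. For 92808_f_at the 5 mice of 15 months with the lowest Fkbp4 signal, replicates 7, 6, 11, 13 and 1, all lay in the upper group. That count was made after the values were seen and was not tested. Their induced means were 9.95, 9.96, 9.93, 9.96 and 9.77. The other mice of that group were replicate 10 at 2102.4 and replicate 14 at 2375.6. For 92809_r_at the 5 lowest were replicates 7, 6, 11, 14 and 5, and replicate 5 lay in the lower group. Replicate 1 was at 642.4 in that probe set, above the 15-month median of 594.3. Within the groups Fkbp4 (92808_f_at) correlated with the induced mean at r = -0.27 below the gap (rho = -0.36; exact permutation p = 0.564 for r) and r = -0.38 above it (rho = -0.61; exact permutation p = 0.434), each over 7 mice. Without replicates 1 and 10 the latter was -0.85, with an exact permutation p of 0.1 over 5 mice. In the 2-month mice r was 0.41 (rho = 0.32; exact permutation p = 0.272, 9 mice). The second probe set gave r = -0.51, -0.65 and 0.19 in the same order. Within the groups no relation passed the test.

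**Figure D5:**
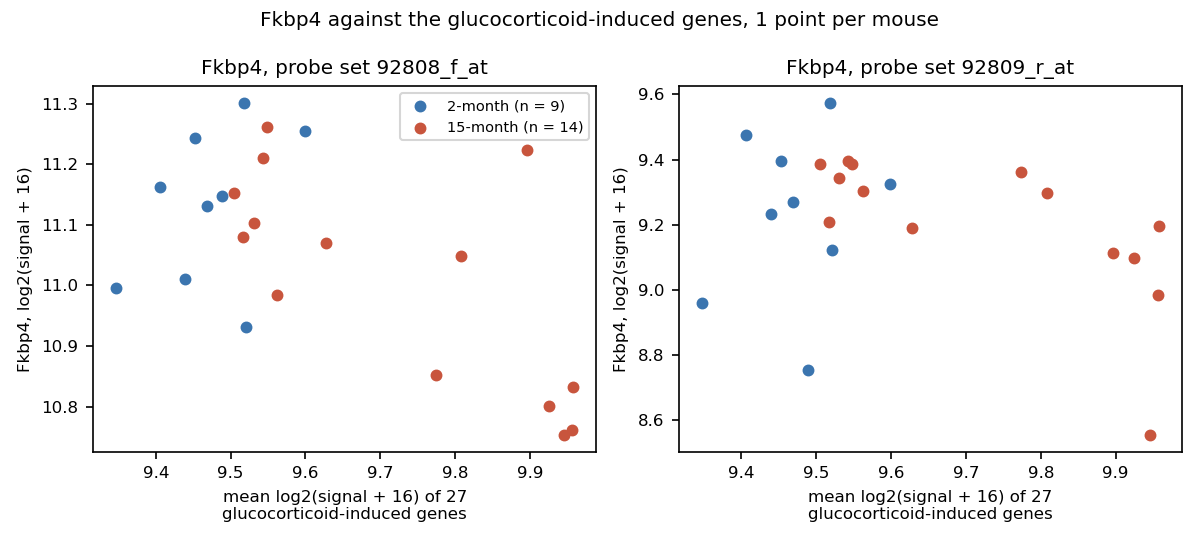
Log2(signal + 16) of the Fkbp4 probe sets against the mean log2(signal + 16) of 27 glucocorticoid-induced genes, 1 point per mouse and 1 panel per probe set. Split at the widest gap, the 15-month mice lie 7 at 9.50 to 9.63 and 7 at 9.77 to 9.96 on the horizontal axis. Of the latter, 5 hold the lowest values of 92808_f_at, a count made after the values were seen and not tested.

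No member followed the induced genes past the correction. In all 60 relations were computed, 30 of the 10 probe sets with the induced mean (in the 2-month mice and in each group of 15-month mice) and 30 between the 6 genes' brightest probe sets, and 0 passed a Benjamini-Hochberg adjusted p of 0.05 (for Pearson r 6 had an unadjusted permutation p under 0.05 and the lowest adjusted p was 0.307, and for Spearman's rho the lowest adjusted p was 0.202). Nr3c1 and the induced mean had r = 0.23 in young mice (rho = 0.23, exact permutation p = 0.554), -0.35 below the gap (rho = -0.36, exact permutation p = 0.453) and 0.74 above it (rho = 0.71, exact permutation p = 0.0577). The last was 0.19 without replicates 1 and 10, the mice of that group farthest from the median of the induced mean. Hsd11b1 and the induced mean had r = 0.72 in the young mice (rho = 0.58, exact permutation p = 0.0272, adjusted p = 0.369), which fell to 0.15 without replicates 3 and 9. In the 15-month mice the same r was -0.03 below the gap (rho = 0.21, exact permutation p = 0.957) and -0.76 above it (rho = -0.75, exact permutation p = 0.0512, adjusted p = 0.409), or -0.44 without replicates 1 and 10.

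Between members, the 3 relations with an unadjusted p under 0.05 for r lay in the 15-month mice and joined Nr3c1, Crhr1 and Hsd11b1. Over the 14 mice Nr3c1 correlated with Crhr1 at r = 0.70 (rho = 0.69, permutation p = 0.00511 and 0.00762, adjusted p = 0.307 and 0.229), or 0.50 without replicates 1 and 3. Crhr1 ran against Hsd11b1 at r = -0.66 (rho = -0.74, permutation p = 0.0104 and 0.00337), or -0.49 without replicates 1 and 13, and Nr3c1 against Hsd11b1 at r = -0.62 (rho = -0.53, permutation p = 0.0164 and 0.0570), or -0.43 without replicates 1 and 3. In the 9 young mice the pair Nr3c1 and Hsd11b1 had the opposite sign, r = 0.48 (rho = 0.67, exact permutation p = 0.187 and 0.0589), and the difference between the ages was not tested. Nr3c1 and Crhr1 had r = 0.09 there (rho = -0.25, exact permutation p = 0.835 and 0.521), and Hsd11b1 and Crhr1 r = -0.19 (rho = -0.38, exact permutation p = 0.637 and 0.312). None passed the adjustment, and 15-month replicate 1 was at an extreme of each. It had the lowest Nr3c1 signal (33.2), a low Crhr1 signal (120.8) and the highest Hsd11b1 signal (952.8). At the opposite end was 15-month replicate 13, the array with the raised low signals. Its Nr3c1 (86.4) and Crhr1 (250.1) signals were below those of replicate 3 alone, and its Hsd11b1 signal (467.0) was the lowest. The part of that array's raised low signals in these relations was not tested. Nor was that of the low 99th percentile of 15-month replicate 3.

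Genes whose pattern over the 23 mice was most like a member's were listed for the 5 tested probe sets, with Pearson r after the mean of each age was taken out, among 5679 genes. These are descriptions over mice with 1 array each, and both genes of a pair were read from the same arrays. Fkbp4 (92808_f_at) was most like 2310061I04Rik (r = 0.83), the clock repressor gene Bhlhe40 (0.81) and the zinc finger gene Zfp207 (0.80), and its second probe set most like Snx12 (0.77), Sf3a1 (0.74) and Vps29 (0.70), with no gene in common. Crhr1 was most like the translation termination factor gene Gspt1 (0.77), Ptcd3 (0.73) and Cpeb2 (0.73). Hsd11b1 was most like Alg5 (0.73), Hdgfl2 (0.71) and Mprip (0.70), and Ncoa1 most like Reps1 (0.69), Ebp (0.66) and Pfkfb3 (0.66). None of these 15 genes passed the test between the ages, with adjusted p from 0.546 to 0.999.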

How the data were processed

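The authors deposited linear intensities, 1 value for each probe set of an array, and the submitters' processing notes name MAS5; no version or setting is given in the sources used here. Symbols came from the annotation of the platform (10833 with 1 symbol, 396 with several, 1193 with none). Signals were analysed as log2(signal + 16), which understates the change of dim genes. The 66 control probe sets were left out, and 7453 of 12422 others, above the 40th percentile of mean log2 signal (a signal of 91.7), were tested with limma 3.58.1 in R 4.3.3 (trend and robust variance, two-sided, Benjamini-Hochberg, false discovery rate 0.05). This fit was first tested on simulated data. Members under the filter were read from a fit with no filter.

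Replicate numbers only name mice. Correlations used 100000 permutations for 14 mice and all pairings for 9 or fewer, two-sided, with numpy 2.4.6 and scipy 1.17.1 in Python 3.11.15. Each was repeated without the 2 mice farthest from the median of a variable of the pair, the induced mean where it was used. Leaving out extremes narrows the range, so a smaller r does not show that a relation rests on those mice. All probe sets of the members were named, and of each list the genes past the threshold and the 2 of lowest p, and for each tested member probe set the 3 genes of highest correlation. Members, lists and alternatives were chosen with earlier results of these data known. Precision is limited by how many arrays there are.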

Additional observations from a re-analysis of the deposited data

Results flagged for a closer look

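In the 2-month group, the 1 small enough for the test, 27 probe sets were looked at for a mouse far from the other 8 by Dixon's ratio, which chance passes in about 1 of 20 groups. Crhr1 was lowest in replicate 6, at 126.5 against 180.1 for the next mouse (ratio 0.56, critical value 0.493), and its log2 change was -0.175 without that mouse (limma, adjusted p = 0.621). Mt1 was lowest in replicate 3, at 6632.3 against 7703 (ratio 0.58), with a log2 change of 0.256 without it (adjusted p = 0.266). Adcy9 was lowest in replicate 2, at 1236.1 against 1716.3 (ratio 0.557), and its log2 change of 0.15 fell to 0.0771 without that mouse (adjusted p = 0.728).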

How the results depend on the processing

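No paired analysis was possible because the replicate numbers do not pair mice across the ages. The count of member probe sets called was 0 in all 12 other settings and without any 1 of the 23 mice. Of 344 recomputed log2 changes of member probe sets 336 kept their direction and stayed uncalled. The change of Hsd11b1 was -0.0181 with the 25th percentile of each array as a covariate and -0.0329 to 0.0645 with 1 mouse left out. That of Fkbp4 92809_r_at was 0.00077 with the choroid plexus covariate, 0.0074 without the 4 arrays of lowest 99th percentile and -0.0937 to 0.0163 with 1 mouse left out. None of these passed the test. Over all probe sets 62 were called with the 25th percentile covariate, 41 of them higher, in place of 28 and 25, and the cause was not tested. With 1 mouse left out the count was 20 to 39. The chaperone list had 0 to 1 called genes with 1 mouse left out (Hspa1a without 2-month replicate 9), and the glucocorticoid-induced list 2 to 4 in every setting, with a median log2 change of 0.21 to 0.27. Low signal limits Nr3c1 and Esr1.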
